A study of Mus musculus with 16 samples.

Results

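The cathepsins examined here were 10 protease genes taken by name from the 55604 genes listed in the count files: Ctsa, Ctsb, Ctsc, Ctsd, Ctse, Ctsh, Ctsk, Ctsl, Ctss and Ctsz. All 10 passed the filter on low counts (at least 10 counts in at least 4 of 8 libraries), as did 16861 genes in all. The libraries came from tumor-associated macrophages (TAMs) of the peritoneal cavity of C57BL/6 mice that carried intraperitoneal ID8 tumors, a mouse ovarian cancer line. The study's methods give female mice of 6 to 8 weeks of age and collection of the cells 6 to 7 weeks into tumor growth. There were 4 libraries of Tim-4+ TAMs and 4 of Tim-4- TAMs, and the labels number them as the pairs 793, 784, 783 and 779. Each library was sequenced on 2 lanes, which were summed. By the study's methods, Tim-4+ cells were pulled out after a density gradient with an antibody against the receptor Tim-4 and magnetic beads, and the remaining cells were enriched with beads against F4/80 to give Tim-4- TAMs, so the Tim-4+ cells were not selected on F4/80. The sources do not say whether a pair was 1 mouse or a pool of mice, so the p-values measure the spread between these pairs. The comparison asked how the paired subsets differ in their transcripts.

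Cathepsins are proteases that work mostly in the acidic lumen of endosomes and lysosomes, where macrophages break down engulfed cells, pathogens and their own worn organelles. They fall into serine (cathepsin A), aspartic (cathepsins D and E) and cysteine proteases (the rest of these genes), are made as inactive precursors, reach the lysosome largely through mannose 6-phosphate receptors, and are held in check by cystatins and related inhibitors. Some also trim the invariant chain and antigens for presentation on MHC class II.

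Ctsa, Ctsd and Ctsl were higher in Tim-4+ than in Tim-4- TAMs, by 1.92-fold, 2.0-fold and 1.47-fold. These 3 of 10 cathepsins passed an adjusted p under 0.05 in edgeR's quasi-likelihood test, which took the pair as a block and was adjusted by the Benjamini-Hochberg method over all tested genes. In the same fit 8.97% of all tested genes were called higher. None of the 10 was called lower, against 8.43% of all tested genes. At an unadjusted p under 0.05 edgeR placed 5 cathepsins higher and 0 lower, against 16.8% and 16.9% of all tested genes. DESeq2 with the pair block called 6 higher and 0 lower, against 13.3% and 14.0% of the genes to which it gave an adjusted p. In a single draw of simulated counts both tools made more false calls than the nominal rate, DESeq2 more than edgeR. That draw had fewer changed genes than were called here, so its rates need not hold for these data. The remaining 7 genes did not pass the edgeR test, which does not show that their levels were alike in the subsets. Without the pair block no cathepsin was called, and with either pair 784 or pair 779 left out none was called either. Without pair 793 only Ctsa was called, and without pair 783 the same 3 genes were.

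In direction, 8 of 10 cathepsins had the higher level in the Tim-4+ library of all 4 pairs, which 22.4% of all tested genes did, on the CPM scale used throughout (counts of a gene relative to the scaled library total). For 1 of 10, Ctsa, all 4 Tim-4+ libraries lay above all 4 Tim-4- libraries, which held for 6.84% of all tested genes. The median log2 fold change was 0.42 over the 10 genes and 0.00 over all tested genes. CPM was scaled by edgeR's trimmed mean of M-values (TMM). With totals alone as the scale, the median of all tested genes moved to -0.36. A change of scale shifts all genes by nearly the same amount, so values relative to the median stay almost unchanged by construction. Relative to that median, Ctsa was at 0.94, Ctsd at 1.0, Ctsl at 0.55, Ctsc at 0.13, Ctsh at 0.31 and Ctsz at 0.29. These values are therefore no test of the scaling. Unadjusted for the shift, Ctsc, Ctsh and Ctsz turned to small negative values with totals as the scale, and Ctsl was no longer called.

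**Figure D1:**
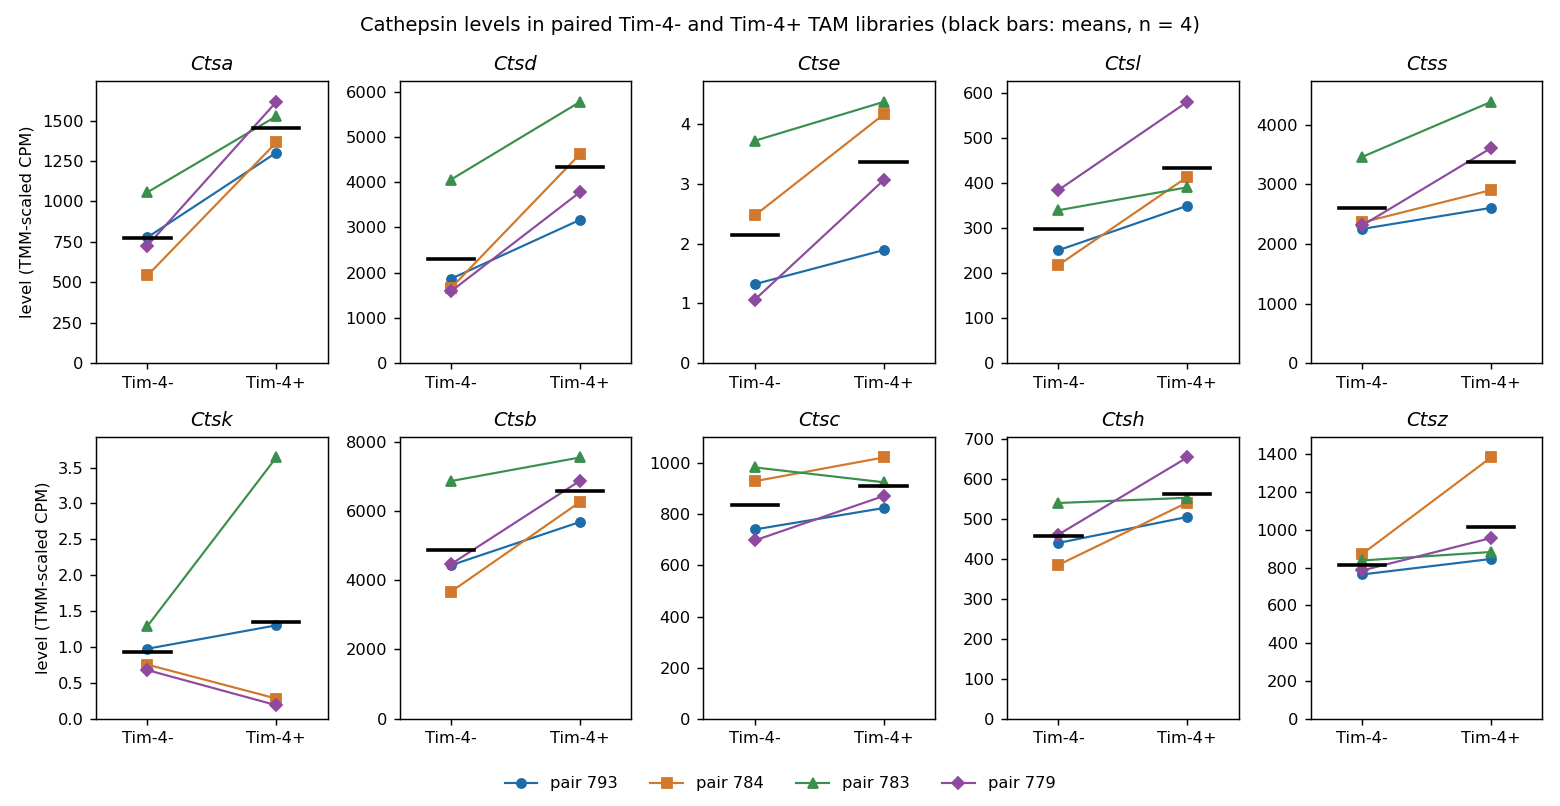
Levels of the 10 cathepsins in scaled CPM (linear axes from 0) in Tim-4- and Tim-4+ TAMs. Points are libraries, lines join the 2 libraries of a pair and black bars are means of 4 libraries. Ctsa is the gene whose 4 Tim-4+ points (1302 to 1616) all lie above its 4 Tim-4- points (542 to 1057), and the Tim-4- library of pair 783 is the highest of its subset for Ctsa, Ctsd, Ctse, Ctss, Ctsk, Ctsb, Ctsc and Ctsh.

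A few facts of the libraries bear on these values. Library totals ran from 53527928 to 69594245 counts on genes. Timd4, which encodes Tim-4, was at 524 to 1744 CPM in Tim-4+ libraries and at 1.97 to 85.0 CPM in Tim-4- libraries. As a scale for the marker counts below, edgeR's test called 8.97% of all tested genes higher and 8.43% lower. Of 8 macrophage markers 6 were higher in Tim-4+ TAMs and 1, Mrc1, was lower. Csf1r was not called (log2 fold change 0.25, adjusted p = 0.353 in edgeR's quasi-likelihood test). The 8 markers summed to 44565 to 57227 CPM in Tim-4+ and 21339 to 34366 CPM in Tim-4- libraries. Lyz2 made up most of these sums, at 33413 to 46931 CPM in Tim-4+ and 16052 to 27076 CPM in Tim-4- libraries. All 9 epithelial and mesothelial markers were lower in Tim-4+ TAMs, and their sums were 108 to 396 CPM in Tim-4+ and 424 to 1961 CPM in Tim-4- libraries. None of these 9 was at 0 in every library. Among the other cell type lists, 0 of 3 tested T and NK cell markers by edgeR (1 lower at an unadjusted p under 0.05 and in DESeq2), 1 of 5 B cell markers (Cd79b, lower), 2 of 3 neutrophil markers (Csf3r and Mmp8, higher), 3 of 7 dendritic cell markers (Cd209a higher, Zbtb46 and Batf3 lower), 2 of 5 mast cell and eosinophil markers (Mcpt4 and Kit, lower) and 1 of 5 fibroblast markers (Dcn, lower) were called. Mmp8 held 0 to 54 counts per library, with means of 0.579 CPM in Tim-4+ and 0.120 CPM in Tim-4- libraries. The remaining tested neutrophil marker, S100a8, was not called (adjusted p = 0.374 in edgeR's quasi-likelihood test). The neutrophil markers S100a9, Ly6g, Cxcr2, Retnlg and Ngp and the T cell markers Cd3e, Cd3d and Cd3g were below the filter. The part of other cells in the cathepsin differences was not tested, and in bulk libraries fewer cells of a type cannot be told apart from less RNA per cell.

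The promoter table from RefSeq (build GRCm38.p6, 250 bases before to 50 bases after a start) held windows for 7 of 10 cathepsins, with 8 windows in all. Ctsb, Ctse and Ctsh had no entry. The sequence CACGTG, the E-box palindrome, occurred in 3 of the 8 windows, which belong to Ctsa, Ctsd and Ctsl. It occurred in 7.15% of the 32851 windows that were searched. These, called all windows below, left out a chromosome that holds none of the 10 cathepsins. CACGTG was not in the windows of Ctss, Ctsk, Ctsc or Ctsz, nor in the first of the 2 Ctsa windows. The longer TCACGTGA, which contains CACGTG, occurred in Ctsa and Ctsd and in 0.974% of all windows. Both are their own reverse complement, so each match counts for both strands. CACGTG was among 6 motifs searched, and its matches are shown because they fall in the 3 genes that were called. Picked in this way, their overlap with the calls is no test of the motif. The uncalled Ctsb, Ctse and Ctsh had no window to compare, and the calls themselves changed when pairs were left out. They are letters in these windows and were not tested for binding. CACGTG is in capitals in each stretch of 30 bases:

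Ctsa, chr2:164833757-164833786 (+), across the second listed start: ctgtCACGTGatgcagatgctCACGTGacc

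Ctsd, chr7:142387908-142387937 (-), first base 110 bases before the start: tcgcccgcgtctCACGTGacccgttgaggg

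Ctsd, chr7:142388048-142388077 (-), first base 250 bases before the start: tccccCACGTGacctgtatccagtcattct

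Ctsl, chr13:64370739-64370768 (-), first base 248 bases before the start: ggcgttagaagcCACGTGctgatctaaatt

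The Ctsa stretch holds 2 copies of TCACGTGA and lay wholly within annotated exons, in the leader of a coding transcript. The inner Ctsd stretch also lay within an exon of an annotated Ctsd transcript that begins further upstream, and the outer one lay outside all exons. Around the Ctsl match, 15 of the 30 bases were in an exon. Another 4 motifs were searched on both strands. GAGGAA, a purine-rich sequence of the kind bound by PU.1, was in the windows of Ctss, Ctsk and Ctsc and in 28.3% of all windows. GGGCGG was in those of Ctsd, Ctss, Ctsc and Ctsz (35.7% of all windows), CCAAT in that of Ctsz (37.4%), and TATAAA in that of Ctss (13.6%).

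Ctsa encodes cathepsin A, a serine carboxypeptidase that also protects 2 other lysosomal enzymes, beta-galactosidase and neuraminidase 1, in a complex. It lies at chr2:164832873-164841032 on the plus strand (GRCm38). Its level was 1302, 1365, 1527 and 1616 CPM in the Tim-4+ libraries of pairs 793, 784, 783 and 779, and 778, 542, 1057 and 727 CPM in the Tim-4- libraries. The subsets did not overlap, and the narrowest pair was 783. The log2 fold change was 0.94 ± 0.18 (SE, 4 pairs), with an adjusted p of 0.0142 in edgeR's quasi-likelihood test. Tim-4+ levels varied 1.24-fold between libraries and Tim-4- levels 1.95-fold. Exons of Ctsa overlap those of Pltp and Neurl2 on the opposite strand, and whether strand was used in counting is not given in the sources used here.

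Ctsd encodes cathepsin D, the main aspartic endopeptidase of the lysosome, and lies at chr7:142375911-142388038 on the minus strand. In the order of pairs given above, its level was 3169, 4624, 5779 and 3782 CPM in Tim-4+ TAMs and 1866, 1662, 4062 and 1590 CPM in Tim-4- TAMs. The Tim-4- library of pair 783 lay above the Tim-4+ libraries of pairs 793 and 779, so the subsets overlapped, while every pair had the Tim-4+ library higher. Its log2 fold change was 1.0 ± 0.21 (SE) with an adjusted p of 0.0196 in edgeR's quasi-likelihood test. By pair the log2 ratio was 0.76, 1.48, 0.51 and 1.25. Of its 2351 exon bases, 1543 are shared with no other gene, and the rest coincide with exons of Gm49369 on the same strand, which had 0 counts in every library.

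Ctse, the second aspartic endopeptidase, was at a low level, with 1.89, 4.16, 4.37 and 3.06 CPM in Tim-4+ and 1.32, 2.47, 3.72 and 1.06 CPM in Tim-4- libraries. The Tim-4+ library was higher in all 4 pairs, the ranges overlapped, and the log2 fold change of 0.75 ± 0.29 (SE) did not pass edgeR's quasi-likelihood test (adjusted p = 0.109). No library held more than 292 counts of it.

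Ctsl, Ctss and Ctsk are cysteine endopeptidases. Cathepsin L is widely expressed, cathepsin S is the form that antigen-presenting cells use to cut the invariant chain, and cathepsin K is best known from bone-resorbing osteoclasts. Ctsl (chr13:64359337-64370890, minus strand) was at 350, 414, 391 and 581 CPM in Tim-4+ TAMs and at 251, 218, 340 and 385 CPM in Tim-4- TAMs. In both subsets pair 779 was highest, and 3 of the 4 Tim-4+ libraries lay above all Tim-4- libraries. The log2 fold change of Ctsl was 0.55 ± 0.15 (SE), with an adjusted p of 0.0383 in edgeR's quasi-likelihood test. Its call was lost under 5 of 14 alternative settings, against 3 for Ctsa and 4 for Ctsd, and with totals as the scale its log2 fold change was 0.19.

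Ctss (chr3:95526786-95556403, plus strand) was at 2607, 2905, 4387 and 3611 CPM in Tim-4+ and at 2253, 2362, 3463 and 2311 CPM in Tim-4- TAMs. Every pair was higher in Tim-4+, by log2 ratios of 0.21 to 0.64, and the highest library of both subsets was that of pair 783. The fitted log2 fold change of 0.37 ± 0.16 (SE) did not pass edgeR's quasi-likelihood test (adjusted p = 0.152), while DESeq2 gave an adjusted p of 0.0187.

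Ctsk lies just upstream of Ctss on chromosome 3 and was present only at traces. Its Tim-4+ libraries held 1.30, 0.280, 3.64 and 0.187 CPM and its Tim-4- libraries 0.974, 0.752, 1.29 and 0.676 CPM. The Tim-4+ level varied 19.4-fold between libraries, with pairs 793 and 783 higher in Tim-4+ and pairs 784 and 779 higher in Tim-4-. The log2 fold change was -0.22 ± 0.61 (SE), with an adjusted p of 0.837 in edgeR's quasi-likelihood test, so no direction can be read from it.

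Ctsb, Ctsc, Ctsh and Ctsz are cysteine proteases that mainly trim peptides from their ends. Cathepsin B cuts both internally and as a dipeptidyl carboxypeptidase, cathepsin C removes dipeptides from the amino end and so activates the serine proteases of granules, cathepsin H is an aminopeptidase, and cathepsin Z is a carboxypeptidase. Ctsb was at 5689, 6266, 7555 and 6880 CPM in Tim-4+ and at 4439, 3674, 6873 and 4471 CPM in Tim-4- libraries. The Tim-4+ library was higher in all 4 pairs, by as little as 0.14 on the log2 scale in pair 783 and as much as 0.77 in pair 784. The log2 fold change of Ctsb was 0.47 ± 0.19 (SE), with an adjusted p of 0.122 in edgeR's quasi-likelihood test and of 0.0115 in DESeq2.

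Ctsc had 825 to 1023 CPM in Tim-4+ and 698 to 984 CPM in Tim-4- TAMs. Its ranges overlapped widely, pair 783 went the other way from the other 3 pairs, and the log2 fold change was 0.13 ± 0.14 (SE), with an adjusted p of 0.545 in edgeR's quasi-likelihood test. Ctsh had 505 to 654 against 385 to 540 CPM, with a log2 fold change of 0.31 ± 0.14 (SE) and an adjusted p of 0.161 in the same test. Ctsz had 846 to 1384 against 764 to 872 CPM, with a log2 fold change of 0.29 ± 0.15 (SE) and an adjusted p of 0.218 in the same test. For Ctsz the top Tim-4+ value came from pair 784, and the other 3 Tim-4+ libraries lay at 846 to 957 CPM, close to the Tim-4- range.

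**Figure D2:**
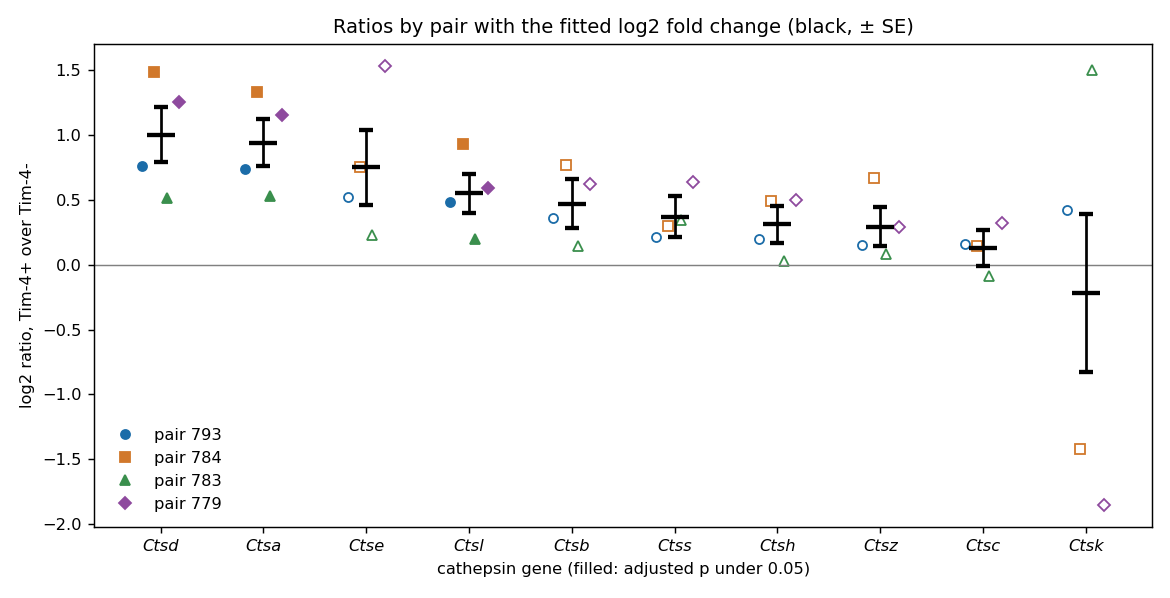
Log2 ratio of Tim-4+ over Tim-4- CPM in each pair (coloured symbols, filled for genes with an adjusted p under 0.05) and the fitted log2 fold change with its SE (black) for each cathepsin. Ctsd (0.51 to 1.48) and Ctsa (0.53 to 1.33) lie highest among the 8 abundant genes in every pair, pair 783 (triangles) has the smallest ratio for most genes, and Ctsk spreads from -1.85 to 1.5.

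The 8 abundant cathepsins, all but Ctse and Ctsk, could be set against each other within a pair, where the scaling of libraries drops out. Ctsa and Ctsd had the 2 largest Tim-4+ to Tim-4- ratios in all 4 pairs. Ctsc was among the 2 smallest in all 4 pairs, joined by Ctsz in 2 of them and by Ctss and Ctsh in 1 each. The log2 ratio of Ctsd exceeded that of Ctsc by 0.61, 1.34, 0.59 and 0.93 in pairs 793, 784, 783 and 779, and that of Ctsb by 0.41, 0.71, 0.37 and 0.63. The ratios of Ctsa and Ctsd themselves differed by 0.02 to 0.14, with Ctsd ahead in 3 pairs. With 4 pairs, the smallest two-sided p of an exact permutation test within pairs is 0.125, so these orders are given as they stand.

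Pairs differed in how far the subsets lay apart. The median log2 ratio over the 8 abundant cathepsins was 0.28 in pair 793, 0.72 in pair 784, 0.17 in pair 783 and 0.61 in pair 779. The median over all tested genes lay between -0.01 and 0.02 in each pair, a value that TMM scaling holds in place by centering the bulk of genes. In pair 783 the Tim-4- library held 18163 CPM of the 10 cathepsins in sum, against 10645 to 11534 CPM in the other 3 Tim-4- libraries. Its Tim-4+ partner was also the highest of its subset, at 22010 CPM against 15296 to 18955 CPM. Timd4 was lowest among Tim-4+ libraries in that pair, at 524 CPM. In Tim-4- libraries Timd4 was at 85.0, 11.1, 22.3 and 1.97 CPM in pairs 793, 784, 783 and 779.

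As a share of all counts on genes, with no scaling, the 10 cathepsins took 1.66% ± 0.305 (SD, n = 4) in Tim-4+ and 1.46% ± 0.393 in Tim-4- TAMs. The share was higher in Tim-4+ in all 4 pairs: 1.36% against 1.21% in pair 793, 1.61% against 1.26% in pair 784, 2.08% against 2.05% in pair 783 and 1.58% against 1.34% in pair 779. The difference between means was smaller than the SD of either subset, a spread that leaves the pairing out.

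Levels of different genes were compared only per length, as scaled CPM divided by the kilobases of merged exons (RPKM). In Tim-4+ TAMs the order ran from Ctss (2487 ± 585, SD, n = 4) through Ctsd (1845 ± 481), Ctsb (1090 ± 133), Ctsz (706 ± 172), Ctsa (308 ± 30.6), Ctsc (157 ± 14.6), Ctsh (125 ± 14.2) and Ctsl (66.9 ± 15.6) to Ctse (1.06 ± 0.360) and Ctsk (0.894 ± 1.06). Ranges of neighbours overlapped for Ctss and Ctsd, Ctsb and Ctsz, Ctsc and Ctsh, and Ctse and Ctsk. The first 8 stood in this order in every Tim-4+ library. In Tim-4- TAMs the mean RPKM gave the same order, from Ctss at 1913 ± 426, Ctsd at 976 ± 504 and Ctsb at 804 ± 230 down to Ctsl at 46.0 ± 11.9. There the ranges of Ctss and Ctsd, of Ctsd and Ctsb, of Ctsa and Ctsc, and of Ctse and Ctsk overlapped.

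The choice of length changed parts of the order. With the shortest principal transcript, Ctsl had 1971 in place of 6489 bases and rose from 66.9 to 220 RPKM in Tim-4+ TAMs, still in place 8, and in Tim-4- TAMs Ctsc (336) and Ctsh (282) moved above Ctsa (213). With only the exon bases that no other gene shares on the same strand, Ctsd came to 2812 RPKM in Tim-4+ TAMs and stood above Ctss. Its count would be too low if reads in the exons it shares with Gm49369 were set aside as ambiguous, which these files cannot show.

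**Figure D3:**
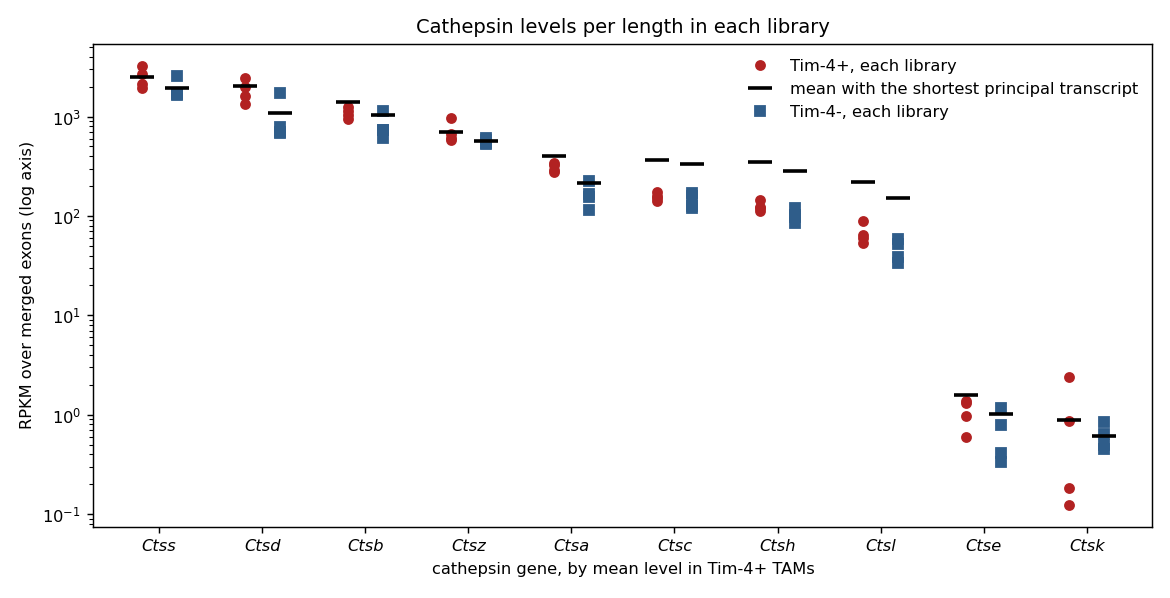
RPKM over merged exons (log axis) of each cathepsin in each Tim-4+ (circles) and Tim-4- (squares) library, with black bars for the subset mean when the shortest principal transcript is the length. Ctss, Ctsd and Ctsb lead in both subsets, 8 genes lie above 30 RPKM in every library, and Ctse and Ctsk lie at or below 2.41 RPKM.

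Over the 8 libraries, log2 CPM of the 3 called genes was set against that of the 8770 genes whose mean reached 10 CPM. The genes most like Ctsa were Lamp1, a lysosomal membrane protein (Pearson r = 0.993), Hpse, the heparan sulfate-cleaving heparanase (r = 0.992), and Ppt1, a lysosomal thioesterase (r = 0.987). Those most like Ctsd were Aldoa and Pkm, both enzymes of glycolysis (r = 0.980 and 0.969), and Lmo2 (r = 0.962). For Ctsl they were Gmppa (r = 0.968), Fuca1, the lysosomal fucosidase (r = 0.958), and Pde6d (r = 0.958). These are descriptions over 8 points that share pairs and subsets.

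Of 13 further cathepsin genes, 2 passed the filter. Ctso, a cysteine cathepsin, rose to 81.4 ± 10.1 CPM (SD, n = 4) in Tim-4+ from 53.0 ± 9.85 CPM in Tim-4- TAMs, with a log2 fold change of 0.63 ± 0.14 (SE) and an adjusted p of 0.0218 in edgeR's quasi-likelihood test. Without pair 793, 784 or 779, or with totals as the scale, Ctso was not called. Ctsf had a log2 fold change of 0.37 and did not pass (adjusted p = 0.0586, same test). The other 11, among them the placental forms and the lymphocyte and granule proteases Ctsw and Ctsg, were below the filter, and 8 of them had no count in any library.

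Inhibitors of cathepsins were called higher in 4 of 7 tested genes and lower in 0 by edgeR's test, with a median log2 fold change of 0.70. Of all tested genes, 8.97% were called higher and 8.43% lower in that test. At an unadjusted p under 0.05, 5 inhibitors were higher and 0 lower, against 16.8% and 16.9% of all tested genes. DESeq2 called 5 higher and 0 lower, against 13.3% and 14.0% of the genes to which it gave an adjusted p. Cst3, the secreted cystatin C, was at 1384, 1277, 1004 and 1648 CPM in Tim-4+ and at 877, 549, 684 and 761 CPM in Tim-4- TAMs. Its subsets did not overlap, and the log2 fold change was 0.89 ± 0.17 (SE, adjusted p = 0.0145 in edgeR's quasi-likelihood test). Cst7, which encodes cystatin F, an inhibitor that acts inside the endolysosome, was at 10.8 ± 5.41 against 3.98 ± 2.0 CPM (log2 fold change 1.43 ± 0.18, adjusted p = 0.00637, same test). Ctla2a, an inhibitor that resembles a cathepsin propeptide, rose by 1.56 ± 0.35 on the log2 scale from a mean of 0.780 CPM, and Serpinb6a, an intracellular serpin, rose by 0.67 ± 0.14. Cstb, the cytosolic cystatin B, was at 76.1 ± 15.2 in Tim-4+ and 80.8 ± 18.4 CPM in Tim-4- TAMs, with an adjusted p of 0.680 in the same test. With pair 784 left out 0 of these inhibitors were called, with pair 779 left out 1 was, and with pair 793 left out 2 were.

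Of 14 tested genes for the activation and sorting of cathepsins, edgeR's test called 3 higher and 2 lower, beside 8.97% and 8.43% of all tested genes, with a median log2 fold change of 0.22. At an unadjusted p under 0.05 there were 6 higher and 2 lower, beside 16.8% and 16.9% of all tested genes. DESeq2 called 4 higher and 2 lower, beside 13.3% and 14.0% of the genes to which it gave an adjusted p. With totals as the scale the balance turned, to 1 higher and 4 lower. Lgmn, the asparaginyl endopeptidase that cuts several cathepsins to their 2-chain forms, was at 973, 1177, 2000 and 1454 CPM in Tim-4+ and 750, 733, 1746 and 984 CPM in Tim-4- TAMs. It was higher in Tim-4+ in all 4 pairs, again with pair 783 highest in both subsets, and did not pass edgeR's quasi-likelihood test (log2 fold change 0.46 ± 0.15, adjusted p = 0.0728). Sort1, the alternative sorting receptor sortilin, rose by 0.88 ± 0.11 on the log2 scale, and Igf2r, the large mannose 6-phosphate receptor, rose by 0.61 ± 0.15. Of 7 adaptor genes of the trans-Golgi network, 2 were called lower: Gga2 fell to 14.6 ± 5.81 from 27.4 ± 8.10 CPM and Ap1b1 to 74.1 ± 42.0 from 132 ± 72.1 CPM. The other 5 did not pass the test, with log2 fold changes of 0.22 (Gga1), 0.00 (Gga3), 0.21 (Ap1g1), 0.33 (Ap1m1) and 0.02 (Ap1s1). Gnptg, a subunit of the enzyme that starts the mannose 6-phosphate tag, was the other gene called higher, by 0.49. Without pair 784, Ap1b1 was the only gene of this list still called.

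Of the 4 MiT/TFE transcription factors, a family that binds E-box sequences, edgeR's test called 1 higher and 0 lower. The shares of all tested genes were 8.97% and 8.43%. At an unadjusted p under 0.05, 2 were higher and 1 lower, beside 16.8% and 16.9% of all tested genes. DESeq2 called 2 higher and 1 lower, beside 13.3% and 14.0% of the genes to which it gave an adjusted p. The median log2 fold change was 0.41. Whether these factors act on the cathepsins was not tested. Tfec was at 18.6, 19.9, 23.2 and 15.4 CPM in Tim-4+ and at 12.8, 6.80, 14.7 and 6.06 CPM in Tim-4- TAMs, without overlap. Its log2 fold change was 1.02 ± 0.20 (SE), with an adjusted p of 0.0167 in edgeR's quasi-likelihood test. Mitf (log2 fold change 0.61, adjusted p = 0.0673) and Tfeb (-0.39, adjusted p = 0.0613) had opposite signs in that test and did not pass it. Tfec was not called without pair 784 or without pair 779.

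Of 7 tested partners and substrates, edgeR's test called 2 higher and 1 lower, beside 8.97% and 8.43% of all tested genes. Their median log2 fold change was 0.41. At an unadjusted p under 0.05, 4 were higher and 1 lower, beside 16.8% and 16.9% of all tested genes. DESeq2 called 4 higher and 0 lower, beside 13.3% and 14.0% of the genes to which it gave an adjusted p. Glb1, the beta-galactosidase that cathepsin A protects, was at 592, 556, 561 and 715 CPM in Tim-4+ and at 205, 114, 203 and 141 CPM in Tim-4- TAMs. The subsets lay far apart, with a log2 fold change of 1.91 ± 0.19 (SE) and an adjusted p of 0.00394 in edgeR's quasi-likelihood test. Neu1, the other enzyme of that complex, was at 146 ± 20.9 against 109 ± 12.2 CPM and did not pass (log2 fold change 0.41, adjusted p = 0.0724, same test). Cd74, the invariant chain that cathepsin S cuts, was at 1219, 596, 3452 and 3983 CPM in Tim-4+ and at 6145, 2524, 5622 and 8062 CPM in Tim-4- TAMs. It was lower in Tim-4+ in all 4 pairs while its ranges overlapped, and its log2 fold change was -1.53 ± 0.31 (SE, adjusted p = 0.0185 in edgeR's quasi-likelihood test, 0.0683 in DESeq2). Prtn3, a serine protease that cathepsin C activates, was at 160 ± 67.3 against 74.5 ± 32.8 CPM (adjusted p = 0.0342 in edgeR's quasi-likelihood test), and its neighbour in function, Elane, stayed below 1 CPM in both subset means. Glb1 was called with any pair left out, Prtn3 was not called without pair 784 or 779, and Cd74 was not called without pair 793, 784 or 779.

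**Figure D4:**
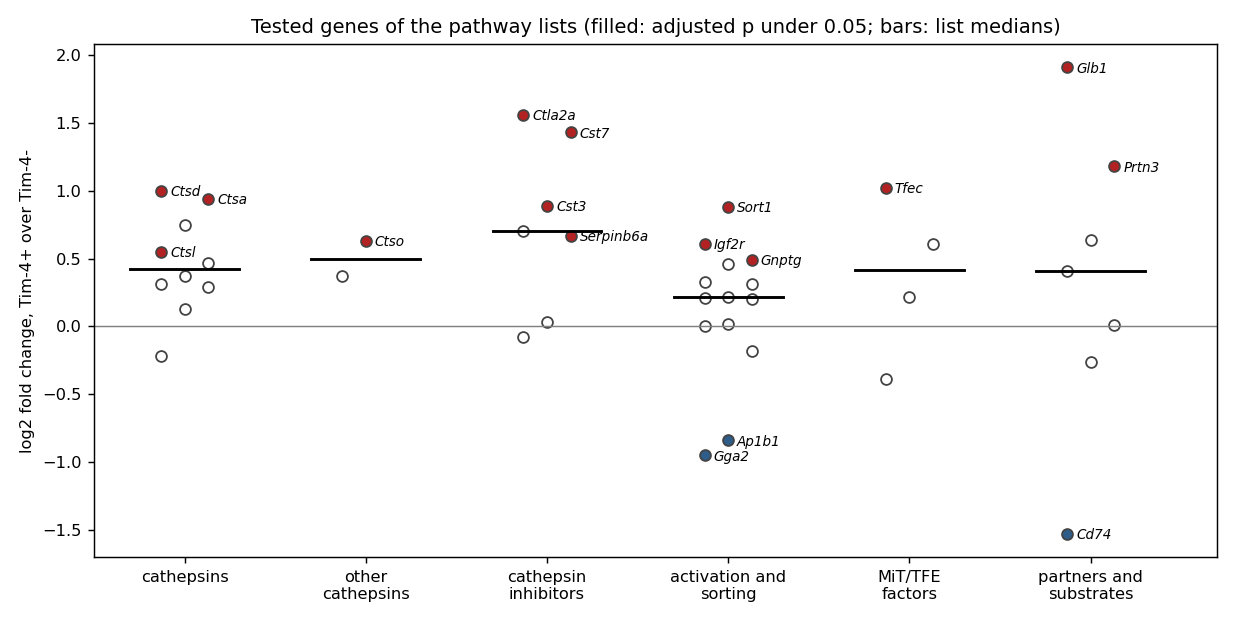
Log2 fold change (Tim-4+ over Tim-4-) of each tested gene in 6 lists, with red and blue points for genes higher or lower at an adjusted p under 0.05, open points for the rest and bars for list medians. The cathepsins span -0.22 to 1.0, Glb1 (1.91) is the highest point and Cd74 (-1.53) the lowest.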

How the data were processed

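RNA from sorted TAMs was depleted of ribosomal RNA, made into stranded libraries and sequenced in paired ends. The submitters' processing notes name FastQC 0.11.3, TopHat2 2.0.13, Cufflinks and Cuffdiff 2.2.1 and the builds GRCm38 and mm10; the study's methods name a human build, and the tool that counted reads is not given in the sources used here. The deposited values were raw counts per gene and lane. The authors' count tables of 15 lanes also hold rows that name no gene (18.9% to 32.9% of all their counts), which were left out. The low end is lane 2 of the Tim-4- library of pair 779. It lists 3153643 alignments that were not unique, against 10020232 in lane 1 of that library, and the cause is not known. The lane without such rows, lane 1 of the Tim-4- library of pair 793, lists symbols in place of Ensembl identifiers. This lane was joined by row order after 96.8% of its comparable symbols matched at their place.

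Identifiers were matched to GENCODE M21. Lanes were summed, genes were kept where 4 or more libraries had 10 or more counts, and edgeR 4.0.16 (TMM, robust quasi-likelihood fit) was run on 16861 genes with the pair as a block, with Benjamini-Hochberg adjustment. SE is the log2 fold change divided by the square root of F. The block follows the study, which calls the subsets paired. Deviations from the subset means correlated within every pair (r = 0.471, 0.498, 0.408 and 0.277). The study's own table gives the pair numbers in another order for what look like the same libraries; the numbers here are those of the labels. The fits were tested on a single draw of simulated counts, where false calls exceeded the nominal rate in both tools and were more frequent in DESeq2. Alternatives used DESeq2 1.42.0, other scalings, filters and lanes, no block and each pair left out.

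The 10 cathepsins and all lists were chosen with earlier results of these data known. Named genes were the 10 members, Timd4, every called gene of a pathway list or the 4 with the largest change where more than 4 were called, Lgmn, Cst3, Cstb, Cst7, Cd74 and Neu1, and the 3 genes most correlated with each called member; cell type markers were also named, and Gnptg, Gga1, Gga3, Ap1g1, Ap1m1, Ap1s1, Ctsf, Mitf, Tfeb and Elane were added after their values were seen. Counts are of reads, not molecules, so they limit only counting error.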

Additional observations from a re-analysis of the deposited data

Results flagged for a closer look

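In pair 783, the Tim-4- library stood apart from the other 3 libraries of its subset for 2 genes. Ctsd was at 4062 CPM there, and the gap to the next library was 0.888 of the subset's range. Ctss was at 3463 CPM, and the gap was 0.910 of the range. The 10 cathepsins were checked in both subsets, 20 groups of 4 libraries in all, and chance alone marks about 1 in 20 such groups. The cause was not tested. Without pair 783 the log2 fold changes were 1.16 for Ctsd and 0.38 for Ctss, and the same 3 cathepsins were called.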

How the results depend on the processing

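With no replicate block, 147 genes were called higher and 85 lower in place of 1512 and 1421, and 0 cathepsins, so the calls rest on the pairing. With totals per library as the scale, 789 were higher and 4906 lower, and the log2 fold changes of Ctsc (-0.23), Ctsh (-0.05) and Ctsz (-0.06) changed sign. DESeq2 with the block called 2204 genes higher and 2323 lower, and 6 cathepsins higher (Ctsa, Ctsd, Ctse, Ctsl, Ctss and Ctsb). Leaving out 1 pair at a time gave 78 to 1573 genes higher, 54 to 1895 lower, and 0 to 3 cathepsins higher. Ctsk turned to 0.55 with no replicate block and to 0.01 with lane 1 only, and ranged from -0.88 to 0.27 with a pair left out. Over 14 alternatives Ctsa stayed between 0.58 and 1.07, Ctsd between 0.64 and 1.16 and Ctsl between 0.19 and 0.66, with the call lost under 3, 4 and 5 of them. Cathepsins lower stayed at 0 throughout. Of the pathway genes, Glb1 was called under all 14. Cd74 was not called by DESeq2, without the block, or without pair 793, 784 or 779. Joining the symbol-listed lane by symbol or leaving it out, both chosen after the data were seen, kept the 3 cathepsin calls.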
